A study of Oryza sativa with 6 samples.

Results

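The genes described here encode the protein kinases and sensors that carry calcium, stress and energy signals in rice: calcium-dependent protein kinases (CPK), calcineurin B-like sensors (CBL) and their interacting kinases (CIPK), calmodulin-like proteins (CML), the calcium and calmodulin-dependent kinase CCaMK, mitogen-activated protein kinases (MPK or MAPK), the stress-activated kinases of the SnRK2 class (SAPK), SnRK1 kinases (OSK) and receptor-like cytoplasmic kinases (RLCK). They were found by family name, as a full match of the symbol or of any synonym in the rice gene reference, among the array's transcript clusters, each a set of probes summarised into 1 value, that are paired with exactly 1 gene. The search gave 69 genes out of 15140 with such a cluster: 22 CIPK, 16 CPK, 11 MPK, 10 CML, 4 SAPK, 2 CBL and 2 RLCK genes, CCaMK and the SnRK1 gene OSK4. Only 4 of them, CPK7, CPK19, CPK23 and CPK24, carry the family name as their own symbol, and the rest carry it as a synonym. No MAP kinase kinase, wall-associated kinase or calmodulin name was matched. The 2 RLCK genes are also listed under names of receptor kinases: RLCK85 as ER2, of the ERECTA receptor family, and RLCK136 as LECRK4, of the lectin receptor kinases.

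RNA came from shoot apices, dissected with the meristem and its 4 youngest leaf primordia, of soil-grown dsl1 plants and WT plants taken when the tip of the fifth leaf appeared. The dsl1 mutant is a dwarf with slender leaves whose altered gene encodes a histone deacetylase. There were 3 dsl1 and 3 WT samples, each on 1 single-colour array. The labels give neither the cultivar, nor the nature of the allele, nor whether samples came from separate plants, so each p-value rests on sample-to-sample spread that may be technical. In whole-apex RNA, fewer cells of a type and less RNA per cell cannot be told apart.

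Calcium entering a plant cell is read by proteins with EF-hand loops. CPKs carry the EF hands and the kinase in 1 protein, while CBLs and CMLs are sensors only, and a CBL recruits and activates a CIPK, often at a membrane where an ion channel or transporter is the target. MAP kinases form cascades in which each kinase phosphorylates the next, SnRK2 kinases act in osmotic stress and abscisic acid signalling, and SnRK1 kinases respond to low energy. Much of this regulation is by protein binding and phosphorylation, which transcript levels do not show.

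Of the 69 genes, 43 were higher and 26 lower in dsl1, so 62.3% were higher, against 53.0% of all 15140 genes. That share of all genes stands beside every count of higher and lower genes below. None of the 69 was called by limma at an adjusted p under 0.05 over all 54922 clusters. The smallest adjusted p was 0.256, for CIPK1. Over all clusters the test called 8 as higher and 6 as lower, 0.0255% of those tested. At an unadjusted p under 0.05, 5 of the 69 genes were higher and 1 lower, 8.70% of them, against 15.0% of all 15140 genes (9.46% higher, 5.52% lower). In 11 of the 69 genes, 15.9%, the 3 dsl1 arrays lay wholly above or below the 3 WT arrays, against 24.4% of all genes. By direction, 6 lay above and 5 below, against 15.0% and 9.33% of all genes. The share of kinase and sensor genes that differed was thus no higher than that of genes at large by either count. Their median log2 difference was 0.05, with 0.02 over all genes, and it came to -0.0001 without WT replicate 1. For 62 of the 69, the 95% interval of the difference lay within a 2-fold change in either direction. The 7 exceptions were 6 CIPK genes and MAPK5.

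**Figure D1:**
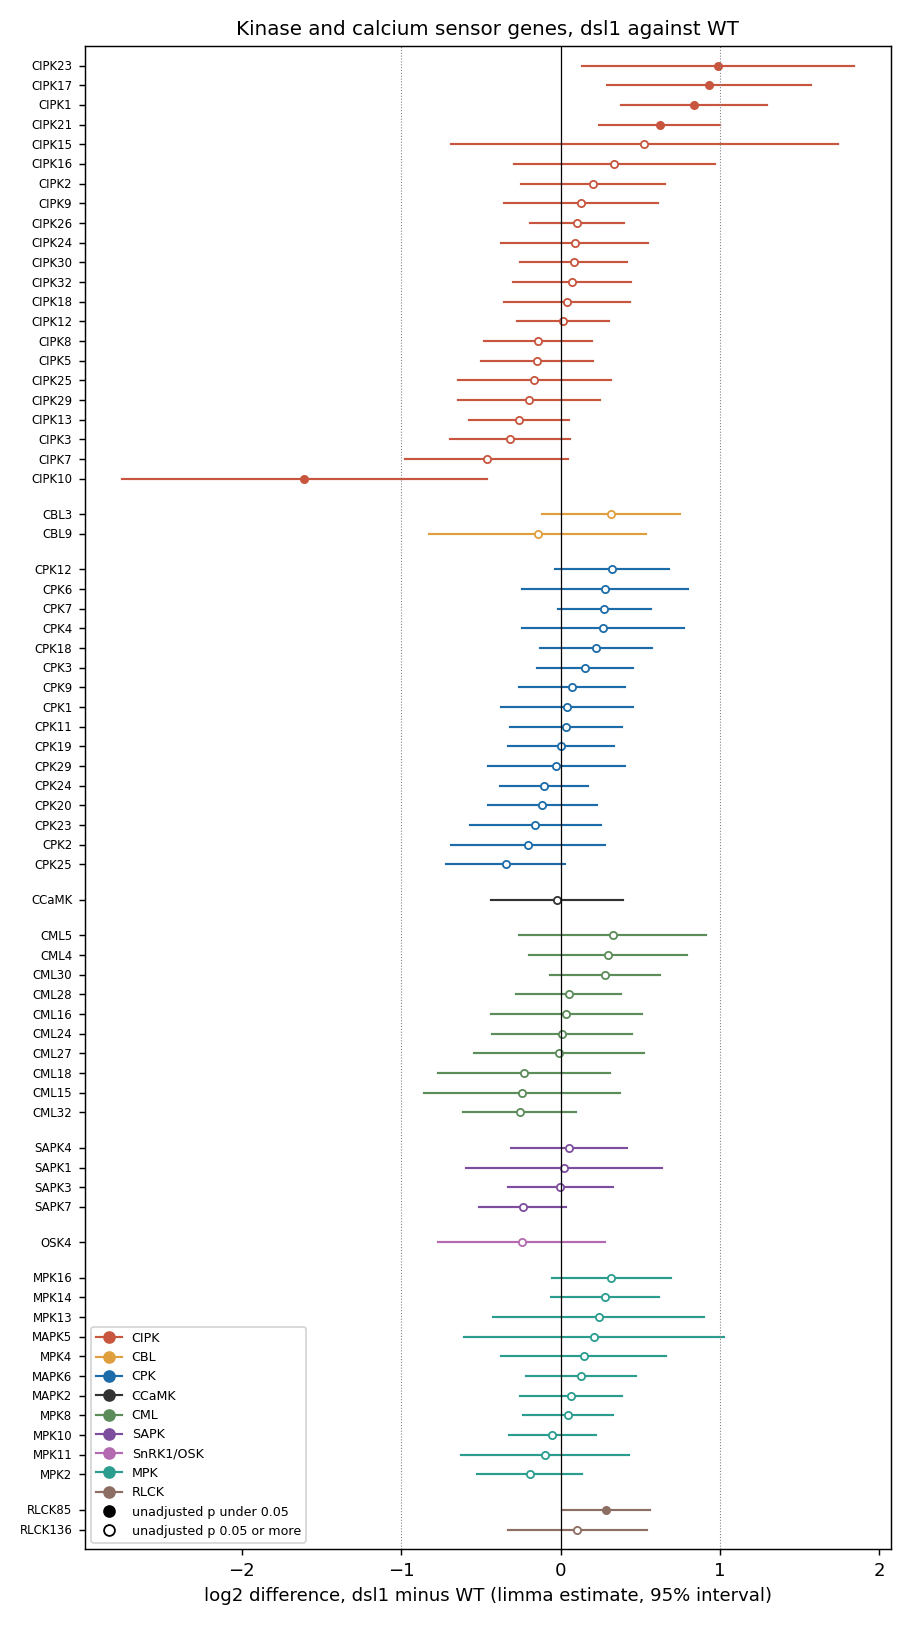
Each point is a gene's log2 difference, dsl1 minus WT, as estimated by limma from 3 arrays a group, with a bar for its 95% interval and colour for its family; filled points have an unadjusted p under 0.05, and dotted lines mark a 2-fold change. Of the 6 filled points 5 are CIPK genes, and the other intervals span 0, most of them between the dotted lines.

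The CIPK genes held most of the larger differences. At an unadjusted p under 0.05 there were 4 higher and 1 lower CIPK genes of 22, 22.7% of them. The share was 15.0% over all genes, and 1 of the 47 other kinase and sensor genes passed. The CIPK differences had an SD of 0.55 on the log2 scale, against 0.37 over all genes and 0.19 in those 47. This SD leans on a few genes, above all CIPK10 at -1.61. The median size of a difference, sign ignored, was 0.20 in the CIPK genes and 0.18 over all genes. It was 0.15 in those 47 and 0.24 in the CML genes, so the typical CIPK gene did not stand out. These counts were read after the values were known and were not tested against each other. The 5 CIPK genes are taken in turn, with the log2 signal on every array.

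CIPK1, whose Arabidopsis namesake works with the plasma membrane sensors CBL1 and CBL9 in osmotic stress and abscisic acid responses, stood at 8.46, 8.81 and 8.42 on the dsl1 arrays, against 7.85, 7.40 and 7.92 on the WT arrays. All 3 dsl1 values lay above all 3 WT values, with a gap about as wide as the spread inside either group. The difference was 0.84 ± 0.19 (SE), a 1.79-fold higher signal in dsl1, with an unadjusted limma p of 0.0034 and an adjusted p of 0.256. CIPK21, whose Arabidopsis namesake is recruited to the vacuolar membrane under salt and osmotic stress, gave 6.45, 6.02 and 6.12 in dsl1 and 5.67, 5.42 and 5.65 in WT. Its groups did not overlap either, and the difference was 0.62 ± 0.16 (SE), 1.54-fold, with an adjusted p of 0.292 in limma. CIPK17 gave 7.16, 6.15 and 6.73 in dsl1 and 5.94, 5.49 and 5.82 in WT. Its dsl1 arrays spread over 1.01 log2 units, and replicate 2 of dsl1 lay close to the highest WT array. The CIPK17 difference was 0.93 ± 0.27 (SE), 1.91-fold (limma adjusted p = 0.318).

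CIPK23, which in rice activates the root potassium channel AKT1 together with CBL1, stood at 6.34, 6.58 and 6.38 in dsl1 and at 4.89, 5.12 and 6.33 in WT. The dsl1 arrays lay close together and WT replicate 3 lay just below the lowest of them, while the other WT arrays were far lower. The difference was 0.99 ± 0.36 (SE), 1.98-fold (limma adjusted p = 0.383), and 1.43 without WT replicate 3 (adjusted p = 0.184). CIPK10 differed in the other direction, with 4.18, 5.07 and 5.80 in dsl1 and 7.20, 6.84 and 5.83 in WT. The highest dsl1 array and the lowest WT array, both replicate 3, were nearly equal. The CIPK10 difference was -1.61 ± 0.48 (SE), the largest of the 69 in size, a 3.05-fold lower signal in dsl1 (limma adjusted p = 0.331). Its 95% interval ran from -2.75 to -0.46, so its size is poorly fixed. With 1 array left out at a time it lay between -2.0 and -1.19 and was not called.

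**Figure D2:**
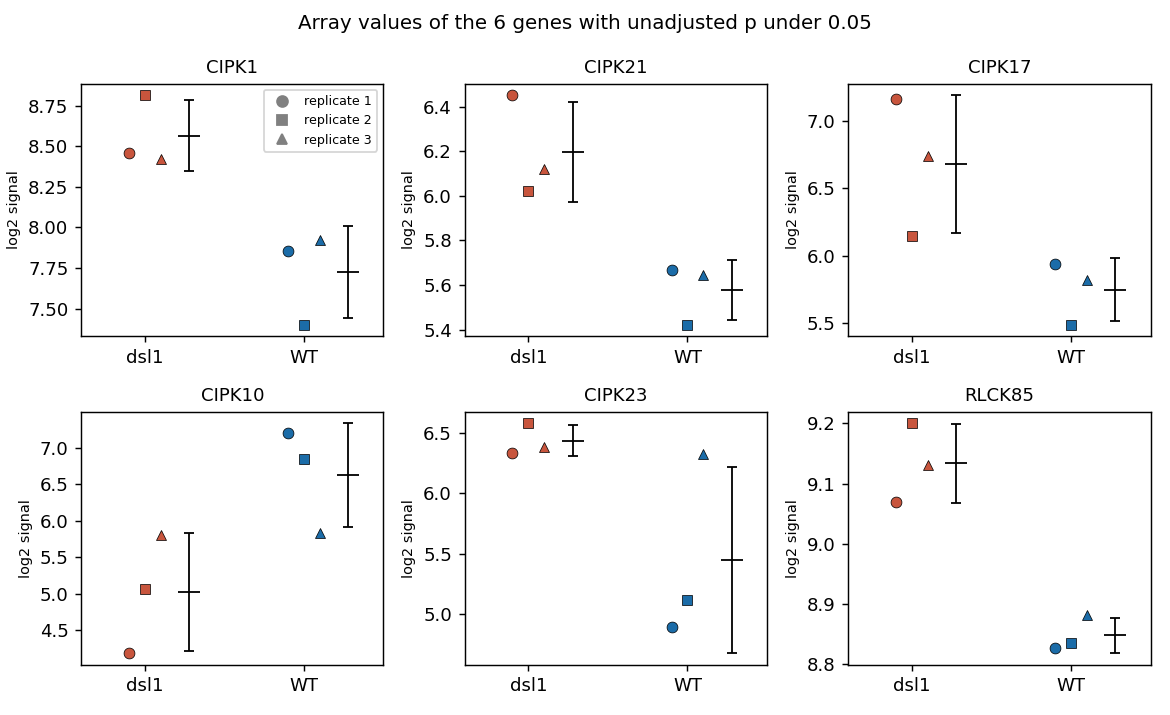
Log2 signal of the 6 genes with an unadjusted p under 0.05, with dsl1 on the left and WT on the right of each panel; symbols mark the replicate number, and the bar beside each group is its mean ± SD (n = 3). CIPK1, CIPK21, CIPK17 and RLCK85 have gaps between groups, while in CIPK23 and CIPK10 WT replicate 3, at 6.33 and 5.83, comes close to the dsl1 arrays. Axes do not start at 0 and differ between panels.

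The other CIPK genes differed by -0.46 to 0.53 with unadjusted p of 0.07 or more. CIPK7 lay at the lower end, with 7.85, 7.97 and 8.56 in dsl1 and 8.80, 8.52 and 8.45 in WT, and the groups overlapped through dsl1 replicate 3. CIPK13 was the one further CIPK gene whose groups did not overlap, with 6.48, 6.33 and 6.26 in dsl1 and 6.74, 6.60 and 6.52 in WT, a difference of -0.26. CIPK15, which in rice links oxygen shortage to sugar signalling through SnRK1 during germination under water, gave 7.67, 7.06 and 7.71 in dsl1 and 6.86, 8.08 and 5.92 in WT. Its WT arrays spread over 2.16 log2 units, the widest of the 69, and its difference of 0.53 had an interval from -0.69 to 1.74. CIPK24, the rice counterpart of the Arabidopsis salt tolerance kinase SOS2, differed by 0.09 (95% interval -0.37 to 0.55). CIPK9, with the brightest signal of the family, differed by 0.13, at 8.98, 8.55 and 8.66 in dsl1 and 8.23, 8.78 and 8.80 in WT. CIPK30 gave the dimmest, 2.66 ± 0.20 in dsl1 and 2.57 ± 0.02 in WT (SD, n = 3 each), among the dimmest of all clusters, where a change could be missed. CIPK7, CIPK13, CIPK15 and CIPK24 are additions to the genes named by rule, picked with their values in view, as is each gene called an addition from here on.

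Some pairs of CIPK genes lie side by side or nearly so on a chromosome. CIPK30 and CIPK12 are direct neighbours on chromosome 1 and CIPK29 and CIPK2 on chromosome 7, with 0 protein-coding genes between them, and CIPK13 and CIPK5 on chromosome 1 are separated by 1. CIPK2 differed by 0.21 and its neighbour CIPK29 by -0.20. The differences were 0.08 for CIPK30 and 0.02 for CIPK12, and -0.26 for CIPK13 and -0.15 for CIPK5. No pair held a gene with an unadjusted p under 0.05. CIPK2, CIPK5, CIPK12 and CIPK29 are additions to the named genes.

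Both CBL sensors overlapped between genotypes. CBL3, whose Arabidopsis namesake sits on the vacuolar membrane, gave 8.04, 8.41 and 7.91 in dsl1 and 7.59, 8.0 and 7.83 in WT, a difference of 0.32 (95% interval -0.12 to 0.75, limma adjusted p = 0.54). Its second cluster, with signals between 1.87 and 3.27 on the 6 arrays, differed by -0.33, so the 2 clusters of CBL3 disagree in sign and the direction is not settled. CBL9 gave 6.93, 6.85 and 6.70 in dsl1 and 7.26, 7.36 and 6.29 in WT. WT replicate 3 lay below all 3 dsl1 arrays and the other WT arrays above them, and the difference was -0.14 (interval -0.82 to 0.54), turning to 0.05 without WT replicate 2.

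The 16 CPK genes differed little: 10 were higher and 6 lower, from -0.34 to 0.32, with a median of 0.04, and no unadjusted p was under 0.05. For all 16 the 95% interval lay within a 2-fold change. CPK7 had the smallest p of the family. Its signal was 7.28, 7.21 and 7.29 in dsl1 and 7.10, 6.96 and 6.89 in WT, so the groups did not overlap, and the difference was 0.27 ± 0.12 (SE, limma adjusted p = 0.449). CPK25 gave 4.21, 4.14 and 4.21 in dsl1 and 4.79, 4.30 and 4.51 in WT, also without overlap, a difference of -0.34 (adjusted p = 0.454) on a dim cluster. CPK12, which limits reactive oxygen and favours salt tolerance in rice, gave 5.71, 5.60 and 5.77 in dsl1 and 5.18, 5.61 and 5.33 in WT. Its highest WT array fell between the dsl1 arrays, and the difference was 0.32 (interval -0.04 to 0.68).

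Among the other CPKs, CPK4, a gene of salt and drought tolerance, gave 9.26, 8.86 and 9.39 in dsl1 and 8.61, 8.87 and 9.23 in WT (difference 0.27, interval -0.24 to 0.78). CPK18, which phosphorylates the MAP kinase MAPK5 in rice, differed by 0.22 (interval -0.13 to 0.58). CPK23, the seed kinase SPK that acts on sucrose synthase, differed by -0.16, and CPK9, of drought tolerance and spikelet fertility, by 0.07. CPK11, the dimmest CPK, differed by 0.03, at 3.36 ± 0.21 in dsl1 and 3.32 ± 0.07 in WT (SD, n = 3 each). CPK4, CPK9, CPK18 and CPK23 are additions to the named genes.

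CPK24, a kinase of the rice cold response, had by far the brightest cluster of the 69 genes, with 11.98, 12.06 and 12.10 in dsl1 and 12.18, 12.11 and 12.16 in WT. The groups just failed to overlap, over a difference of -0.11 (interval -0.38 to 0.17). Its second cluster read 6.62, 6.36 and 6.66 in dsl1 and 6.71, 6.93 and 6.67 in WT, more than 5 log2 units dimmer, with a difference of -0.22. Cluster numbers on this array follow the chromosomes. That of the brighter cluster falls among chromosome 5 genes, and that of the dimmer among chromosome 11 genes, where CPK24 lies. The brighter cluster may thus lie at another locus, and its values and difference may not be those of CPK24. Which of these clusters reads the CPK24 transcript was not tested, and the brightness of the first is no measure of its level. Of the 6 genes with more than 1 cluster, CPK6, CPK24, CPK29 and CIPK7 had differences of 1 sign over their clusters, while CBL3 and CIPK25 did not. CPK29 lies on chromosome 12, but the cluster used for it and another are numbered among chromosome 9 genes. For CPK24 and CPK29 a shared sign therefore says little about the gene. CIPK25 differed by -0.16 on its brighter cluster and by 0.17 on its other.

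CCaMK decodes calcium oscillations in the root during symbiosis with fungi and, in legumes, with nodule bacteria. Its signal in the apex was low, 4.17, 4.34 and 4.34 in dsl1 and 4.64, 4.17 and 4.11 in WT. The difference was -0.02 (interval -0.44 to 0.39), on a dim cluster, and its sign turned on quantile normalisation. Its nuclear target CYCLOPS was dimmer still, at 1.90, 2.06 and 2.40 in dsl1 and 2.05, 1.95 and 1.61 in WT.

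The 10 calmodulin-like genes gave no gene with an unadjusted p under 0.05 and no separated groups. Their differences ran from -0.26 (CML32) to 0.33 (CML5), with 6 higher and 4 lower and a median of 0.02 that turned to -0.001 on quantile normalisation. CML30 had the smallest p, with 6.92, 6.68 and 6.79 in dsl1 and 6.70, 6.52 and 6.34 in WT, a difference of 0.28 (limma adjusted p = 0.499). Only the lowest dsl1 array fell below the highest WT array. CML5, also listed as calmodulin 2 (OsCAM-2), gave 3.80, 3.92 and 3.61 in dsl1 and 3.40, 2.99 and 3.95 in WT, with WT replicate 3 above every dsl1 array. CML24, the brightest of the family at 8.77 ± 0.13 in dsl1 and 8.76 ± 0.31 in WT (SD, n = 3 each), differed by 0.01 with an interval from -0.43 to 0.45, and its sign turned to -0.02 on quantile normalisation. CML28 was the dimmest, between 2.59 and 2.95 on all 6 arrays.

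In the SnRK2 class, none of the 4 SAPK genes had an unadjusted p under 0.05. These kinases are activated by hyperosmotic stress in rice. SAPK4 gave 9.03, 9.14 and 9.30 in dsl1 and 8.96, 9.32 and 9.01 in WT (difference 0.05, interval -0.31 to 0.42). SAPK7 had the largest difference of the 4, with 6.46, 6.47 and 6.55 in dsl1 and 6.78, 6.71 and 6.71 in WT. Its groups were tight and did not overlap, yet the difference was only -0.24 ± 0.12 (SE, limma adjusted p = 0.476). SAPK1 and SAPK3 differed by 0.02 and -0.0004, and both are additions. The SnRK1 gene OSK4 gave 6.52, 7.01 and 6.94 in dsl1 and 7.01, 7.43 and 6.75 in WT, a difference of -0.24 with an interval from -0.77 to 0.28.

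Among the 11 MAP kinases, 8 were higher and 3 lower in dsl1, with a median of 0.13 that came to -0.0045 without WT replicate 1. None had an unadjusted p under 0.05 and none had separated groups. MPK16 gave 4.84, 4.56 and 4.79 in dsl1 and 4.64, 4.33 and 4.27 in WT (difference 0.32, limma adjusted p = 0.478). MPK14 gave 8.88, 8.90 and 8.74 in dsl1 and 8.75, 8.38 and 8.55 in WT (difference 0.28, adjusted p = 0.495). In both, 1 WT array reached into the dsl1 range. MPK2 lay at the lower end, at 5.39, 5.19 and 5.41 in dsl1 and 5.37, 5.53 and 5.66 in WT, a difference of -0.19. MAPK6, a kinase of grain size and cell proliferation in rice, gave 8.82, 9.02 and 8.82 in dsl1 and 8.96, 8.63 and 8.69 in WT, a difference of 0.13 with an interval from -0.22 to 0.47.

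MAPK5, which restrains disease resistance and favours abiotic stress tolerance in rice, was even in dsl1, at 6.76, 6.55 and 6.61, and spread in WT, at 5.77, 6.29 and 7.22. MPK13, also listed as BIMK2, a gene induced by a resistance-activating compound, had the same order of WT arrays, with 6.0, 6.21 and 5.84 in dsl1 and 5.23, 5.76 and 6.34 in WT. In both genes WT replicate 3 exceeded every dsl1 array and WT replicate 1 lay below every one. MAPK5 and MPK13 are additions chosen for this spread, and their differences were 0.21 and 0.24.

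Spread of this kind was confined to few of the 69 genes. In 7 of them, CIPK10, CIPK15, CIPK17, CIPK23, CBL9, MPK13 and MAPK5, the arrays of 1 genotype covered more than 1 log2 unit. The wide genotype was WT alone in CIPK15, CIPK23, CBL9, MPK13 and MAPK5, dsl1 alone in CIPK17, and both in CIPK10. In each of the 6 genes with a wide WT group except CIPK15, WT replicate 3 lay farthest from the other WT arrays, in MPK13 only narrowly. Over all clusters WT replicate 3 was not the noisiest array. Its array weight in limma, which is lower for a noisier array, was 1.16, and the lowest was 0.60 for WT replicate 2. Over all 69 genes the median range within a genotype was 0.34 in dsl1 and 0.37 in WT. WT replicate 1 was the lowest of the 6 arrays in 20 of the 69 genes, the most of any array, while dsl1 replicate 1 and WT replicate 2 were each the highest in 16. The same counts were not made over all genes, so whether they are particular to these genes is not known.

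**Figure D3:**
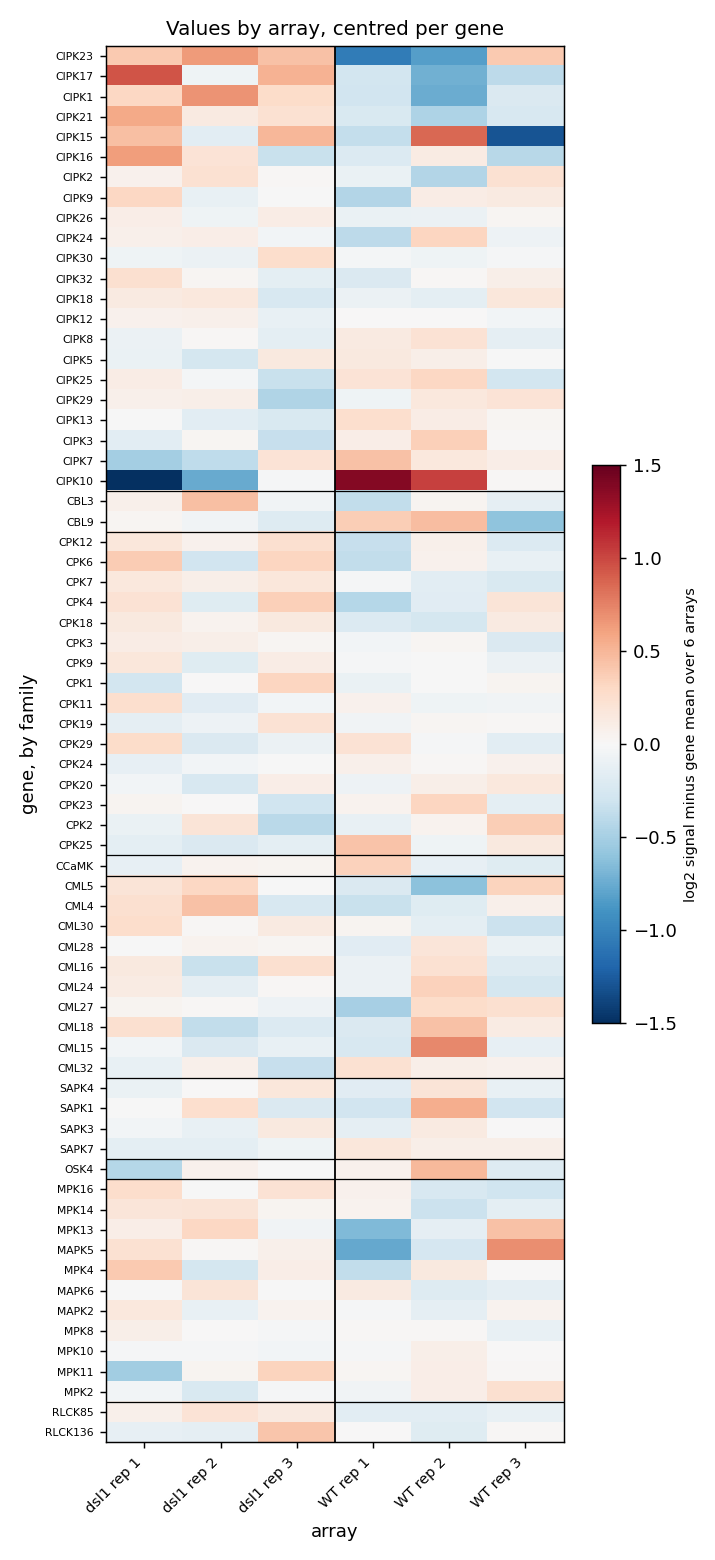
Log2 signal of each of the 69 genes on each array, minus the gene's mean over the 6 arrays, with the 3 dsl1 arrays on the left and genes grouped by family in the order of their difference; colours saturate at 1.5. Strong colours sit in a few rows, mostly of CIPK genes and of MAPK5 and MPK13, and within WT replicates 1 and 3 differ in colour in several of them.

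RLCK85, the ERECTA-family gene ER2, gave 9.07, 9.20 and 9.13 in dsl1 and 8.83, 8.83 and 8.88 in WT. ERECTA receptors shape organ growth and stomatal patterning in Arabidopsis. The groups were tight and clearly apart, but the difference was small, 0.29 ± 0.12 (SE), 1.22-fold, with an unadjusted limma p of 0.0442 and an adjusted p of 0.414. RLCK136, the lectin receptor kinase gene LECRK4, differed by 0.11 on a dim cluster, at 4.32, 4.31 and 4.86 in dsl1 and 4.45, 4.26 and 4.46 in WT.

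The genes whose values over the 6 arrays ran most like those of CIPK1, by Pearson correlation among the genes outside the set, were LOC4345231 (r = 0.996), LOC4333453 (r = 0.994) and LOC4341312 (r = 0.992), none with a common name. These are the highest of many correlations over 6 arrays that also share the genotype difference, and they are given as a description.

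Families of genes that act with these kinases were searched by symbol in the same way. A gene is listed by its name, and whether it acts with any of these kinases was not examined. After names matched by letters only were left out (kinesins, casparian strip-like proteins and others), 83 genes remained, of which 53 were higher and 30 lower. None was called by limma, and the genes with an unadjusted p under 0.05 were 9 higher and 2 lower ones, 13.3% of the 83, against 15.0% of all genes. No MAP kinase kinase kinase or MAP kinase phosphatase was matched by name.

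The 32 phosphatases of the PP2C family, part of which restrain SnRK2 kinases, held 25 higher and 7 lower genes. PP2C59 stood apart, at 7.69, 8.47 and 8.58 in dsl1 and 6.02, 5.84 and 5.64 in WT, 5.32-fold higher with a limma adjusted p of 0.0801. Whether PP2C59 is among those that restrain SnRK2 kinases was not examined. PP2C39 and PP2C41 differed by 0.73 and 0.60 and PP2C49 by -0.34, with adjusted p of 0.35, 0.377 and 0.407. The abscisic acid receptor PYL11 differed by -0.17. The factor bZIP23, also listed as ABF2, which SnRK2 kinases phosphorylate in the abscisic acid response, gave 7.11, 7.34 and 7.35 in dsl1 and 6.53, 6.63 and 7.04 in WT, a difference of 0.53 (adjusted p = 0.351).

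Of 22 potassium and sodium transporter and channel genes of the kind that CIPKs control, 15 were higher and 7 lower, and 5 of the 22 (22.7%), each higher, had an unadjusted p under 0.05, against 9.46% of all genes higher at that p. HAK5, a high-affinity potassium transporter, gave 5.52, 5.56 and 5.61 in dsl1 and 4.53, 4.41 and 4.81 in WT, 1.97-fold higher (limma adjusted p = 0.162). HAK15, HAK9, HAK16 and HAK20 differed by 0.56, 0.66, 0.45 and 0.40, with adjusted p of 0.256 to 0.421. The channel AKT1, the target of CIPK23, differed by 0.11, at 5.72, 5.70 and 5.70 in dsl1 and 5.58, 5.39 and 5.82 in WT. Of the 9 calcium channels, pumps and exchangers, 4 were higher and 5 lower with no unadjusted p under 0.05, the calcium pump ACA8 at -0.52 having the smallest. The NADPH oxidase gene RBOHB differed by -0.48 (adjusted p = 0.468). Of the 9 genes tied to SnRK1 and trehalose metabolism, TPP1, a trehalose phosphate phosphatase, gave 6.96, 6.98 and 7.47 in dsl1 and 7.73, 8.38 and 7.81 in WT, a difference of -0.84 (adjusted p = 0.305). The other CCaMK partner, POLLUX, differed by 0.33, and of 6 upstream receptor genes the chitin receptor CEBIP had the smallest p, at 0.57 (adjusted p = 0.591).

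**Figure D4:**
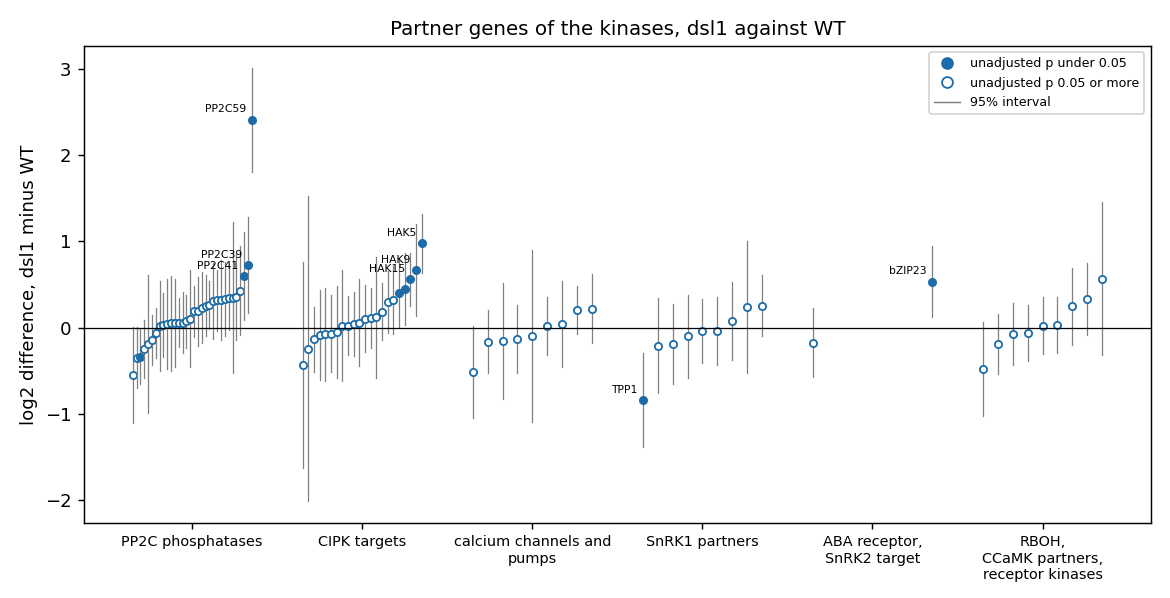
Each point is the log2 difference, dsl1 minus WT, of 1 partner gene with its 95% interval, sorted within its group; filled points have an unadjusted p under 0.05, and those beyond 0.5 in size are named. Groups are lists by family name. PP2C59 at 2.41 stands above the other PP2C genes, HAK5 at 0.98 heads the group labelled CIPK targets, and TPP1 at -0.84 is the lowest named.

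Tissue and state markers were read on the same arrays. Of 10 matched genes of the meristem and young primordia, 4 were higher and 6 lower. Higher were OSH71 (0.57) and OSH15 (0.35), both at an unadjusted limma p under 0.05, OSH1 (0.15) and YAB2 (0.11). WOX4, DL and the other YABBY genes were lower, with differences of -0.28 to -0.01. The mean log2 signal of the 10 pools these opposite signs. It was 5.98 to 6.06 over the dsl1 arrays and 5.93 to 6.05 over the WT arrays. OSH1, the defining meristem gene, stood at 4.63, 5.26 and 5.35 in dsl1 and 5.13, 4.67 and 4.98 in WT. Of 6 greening leaf genes 1 was higher and 5 lower, with means of 8.39 to 8.81 in dsl1 and 8.63 to 8.98 in WT. Of 6 wound or pathogen response genes 5 were higher, 3 at an unadjusted limma p under 0.05, against 9.46% of all genes higher at that p. The means of the 6 were 6.54 to 7.29 in dsl1 and 5.36 to 5.88 in WT. The 2 water deficit genes, salT and LEA19, averaged 6.48 to 7.30 in dsl1 and 3.41 to 4.21 in WT. Of these 8 genes, 5 (Cht1, Cht2, JAMYB, salT and LEA19) had groups that did not overlap, higher in dsl1, while AOS1, AOS2 and LOX2 overlapped. CIPK1, CIPK17, CIPK21 and CIPK23 also lay wholly above WT, as did 15.0% of all genes. None of the 8 was called in limma, the smallest adjusted p being 0.078 for LEA19, and their part in the CIPK differences was not tested. No root marker was matched by name.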

How the data were processed

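The values are the authors' deposited log2 expression values for 54922 transcript clusters on 6 arrays, used without further scaling. Per the submitters' processing notes they come from Affymetrix Expression Console 1.3. The sources used here do not give the background correction, normalisation, summarisation or genome build. Array medians were 5.30 to 5.40, and the number of arrays limits the precision. Groups follow the genotype in the sample titles. Clusters paired with exactly 1 gene (15829) took names from the platform's gene table and from the rice gene reference ASM3414082v1, and the cluster with the highest mean over the arrays stood for a gene. Signals of different probes are not compared as levels.

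The difference of dsl1 and WT was fitted with limma 3.58.1 (lmFit, eBayes, R 4.3.3, 2-sided, no block) over all clusters with Benjamini-Hochberg adjustment. On simulated data the fit called 21% of the clusters given a change of 1 log2 unit and 95% of those given 2. The simulation changed only a small part of the clusters and drew independent normal noise, with no array effects. In that setting most 2-fold changes went uncalled, and the share missed in the real data may differ. No filter on low values was used, so all 69 genes were tested. Genes named are those with an unadjusted p under 0.05 and, per family, the 2 smallest p, the brightest and dimmest, and the largest difference each way; among partners, those with an unadjusted p under 0.05 and the smallest p of a list. The members and lists were chosen with earlier results of these data known. Same-numbered samples of the 2 genotypes did not deviate together (r of -0.125 to -0.052), so the numbers were not taken as pairs. Across numbers, r was 0.180 for dsl1 replicate 1 with WT replicate 2 and 0.198 for dsl1 replicate 2 with WT replicate 3. It was 0.117 for dsl1 replicate 3 with WT replicate 1 and negative for the rest. Whether samples shared a batch was not tested. Alternatives are given in the closing section. No sequence is shown.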

Additional observations from a re-analysis of the deposited data

How the results depend on the processing

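None of the 69 genes was called in limma under any of the alternatives run, and over the 29 genes followed the smallest adjusted p was 0.107, for CIPK1 when only clusters paired with 1 gene were fitted. The counts over all clusters moved: 59 higher and 16 lower with only clusters paired with 1 gene, 36 and 16 without the rows before the first gene-paired cluster, 1 and 0 with the replicate block, and 0 to 4 in either direction with 1 array left out. The number of kinase and sensor genes at an unadjusted p under 0.05 was 3 to 7 higher (3 without dsl1 replicate 1) and 1 to 2 lower (2 without dsl1 replicate 3, WT replicate 2 or WT replicate 3) with 1 array left out, 2 lower on quantile normalisation and with array weights, and 0 and 0 when only the 4 genes matched by their own symbol were taken. Partner genes by the full search, kinesins and other chance matches included, had 13 higher and 3 lower. The lower count was 6 on quantile normalisation, with only clusters paired with 1 gene, without the rows before the first gene-paired cluster and with a variance trend, and 5 on median centring and with array weights. With 1 array left out, 6 to 14 were higher and 2 to 4 lower. Leaving out the chance matches was chosen after seeing the data.

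Of the log2 differences followed, 438 kept their sign and 18, in 10 genes whose main differences were at most 0.32 in size, turned it. Fits with clusters left out, a variance trend or the replicate block leave a gene's difference as it is and change only its error. Part of the 438 therefore could not have turned, and their number is no measure of stability. On quantile normalisation CCaMK came to 0.0111 and CML24 to -0.0246, and the mean over both CBL3 clusters was -0.0067. With 1 array left out, the range was -0.12 to 0.1452 for CCaMK, -0.0832 to 0.1255 for CPK11, -0.0588 to 0.2293 for CIPK9, -0.0299 to 0.1453 for CIPK30, -0.4842 to 0.0494 for CBL9, -0.0192 to 0.1575 for CML28, -0.1209 to 0.1815 for CML24, -0.0172 to 0.166 for SAPK4 and -0.0768 to 0.1986 for RLCK136. The cause was not tested.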
